A study of Aspergillus nidulans with 12 samples.

Results

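The peaks described here lie at 3 genes whose products act with or on the velvet protein VeA of Aspergillus nidulans: laeA (AN0807), llmF (AN6749) and kapA (AN2142). A peak was taken when the annotation in its list named 1 of these genes as the gene with the nearest feature start, which in these lists is the start of an exon. This gave 24 of the 31953 peaks in the 11 anti-FLAG lists, with 8 at laeA, 9 at llmF and 7 at kapA. Of these, 15 came from lists of single libraries and 9 from the combined list of each tagged strain. A further 6 of the 21897 merged regions, at which IgG signal was deposited, were named for these genes (1 for laeA, 3 for llmF and 2 for kapA).

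The data are ChIP-seq libraries of cells grown vegetatively in liquid minimal medium for 24 h in the dark. Each of the 3 strains, VeA::FLAG, LaeA::FLAG and a wild type without the epitope (WT), gave 3 libraries with anti-FLAG antibody and 1 with anti-rabbit IgG. In each tagged strain a 3× FLAG epitope followed by the AfriboB marker had been placed at the end of the open reading frame, of veA in the VeA::FLAG strain and of laeA in the LaeA::FLAG strain. Each tagged strain was a single recombinant from a cross, so the laeA locus described below carried the tag and the marker in the LaeA::FLAG strain and neither in WT. The labels number the libraries of a strain but do not say that they came from separate cultures, so the p-values measure only the spread between these libraries, which may be technical.

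In the dark, VeA enters the nucleus together with the velvet protein VelB, and there LaeA, a nuclear protein with the S-adenosylmethionine binding motif of methyltransferases, joins them to form the VelB/VeA/LaeA complex. This complex governs sexual development and secondary metabolism. KapA is the importin alpha that binds VeA and carries it through the nuclear pore, and LlmF is a LaeA-like methyltransferase that binds VeA and limits its import into the nucleus. The 3 genes thus encode the import carrier of VeA, an inhibitor of that import and its nuclear partner. Peaks at these genes tell where anti-FLAG signal passed the calling cutoffs at genes tied to VeA. They do not by themselves show that tagged VeA or LaeA was bound there.

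The signal of a peak is the number of tags in its interval scaled to a library of 10 M tags. Total tags were 1456059.5 to 1893170.5 in the VeA::FLAG libraries, 970627.5 to 3701440 in the LaeA::FLAG libraries and 319742 to 7974006 in the WT libraries, so that 1 tag was worth 31.3 units of signal in WT replicate 3 and 1.25 units in WT replicate 1. The lists held 4252 to 5783 peaks in the VeA::FLAG replicates, 557 to 2471 peaks in the LaeA::FLAG replicates and 134 to 1831 peaks in the WT replicates. The lowest signal of any called peak was 82.4 to 99.5 in the VeA::FLAG replicates, 121 to 170 in the LaeA::FLAG replicates and 85.3 to 235 in the WT replicates, and a gene without a peak may have held less than this. No list gives the signal at places where no peak was called. Depth and list length differed between the strains. Counts from lists of equal length are given beside the counts per gene, and the part of depth in the results was not tested.

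laeA was the gene of the 3 with the strongest peaks, and it had a peak in front of exon 1 in all 3 VeA::FLAG replicates. The gene lies on the minus strand of chromosome VIII, and exon 1 starts at position 2424142 (coordinates are those of the FGSC A4 assembly used in the lists). The peak of VeA::FLAG replicate 1, chrVIII:2424408-2424610, had a signal of 521. That of VeA::FLAG replicate 2, chrVIII:2424590-2424742, had a signal of 988, and that of VeA::FLAG replicate 3, chrVIII:2424423-2424569, a signal of 577. Their centres lay 367, 524 and 354 bp upstream of the start of exon 1. Replicate 2 thus had the highest signal and the most distant centre, and its interval overlapped that of replicate 1 but not that of replicate 3.

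In the LaeA::FLAG strain laeA had peaks in replicates 1 and 3. The upstream peak of LaeA::FLAG replicate 1, chrVIII:2424531-2424731, had a signal of 644 with its centre 489 bp upstream of exon 1. The peak of LaeA::FLAG replicate 3, chrVIII:2424428-2424696, had a signal of 727 with its centre 420 bp upstream. LaeA::FLAG replicate 2 had no peak named for laeA by the rule. Its closest peak, chrVIII:2424860-2425058, was centred 817 bp upstream with a signal of 551, and it is listed in the promoter class of laeA although the nearest exon start belongs to the neighbouring gene AN12109. Exon 2 of AN12109, also on the minus strand, starts 1220 bp upstream of exon 1 of laeA. In another count each peak was also given to the gene named in its annotation, of whatever class. Each of the 6 tagged libraries then had a peak of laeA and none of the WT libraries did. This held for 0.946% of the 9831 genes named either way.

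**Figure D1:**
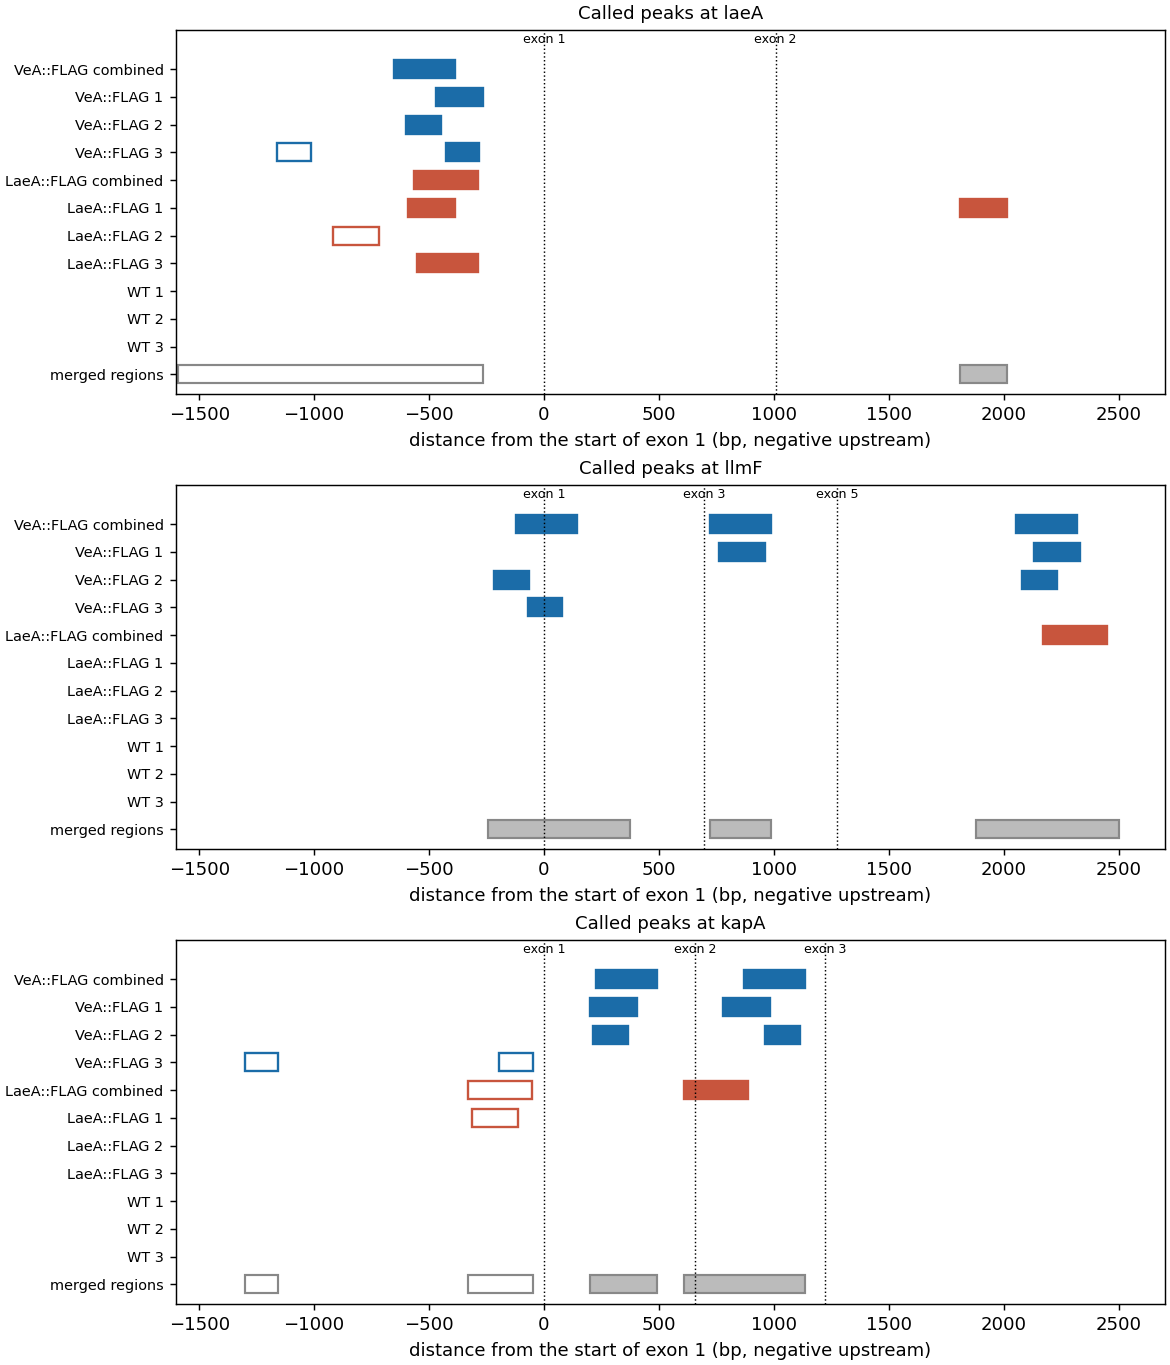
Peaks called at laeA, llmF and kapA, drawn to scale against the distance from the start of exon 1 in the direction of transcription (bp). Each row is a peak list, filled boxes are peaks named for the gene, open boxes are peaks nearest to a neighbouring gene, grey boxes are the merged regions and dotted lines are the exon starts that the distances in the lists gave. The upstream peaks of laeA lie between 354 and 524 bp from exon 1 in the lists where they were named for it. The peaks named for llmF lie around exon 1, at exon 3 or in the class of the transcription end. Those named for kapA lie inside the gene, and the 3 WT rows are empty.

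A further peak of LaeA::FLAG replicate 1 was named for laeA, at chrVIII:2422130-2422330. Its centre lay 1912 bp downstream of the start of exon 1 and the list places it at the transcription end of AN0808. It had a signal of 522 with 102 in the IgG library of the same strain, a ratio of 5.10 (95% interval 3.89 to 6.70). No other list had a peak there. The tag and marker of the LaeA::FLAG strain lie at the end of the laeA reading frame, and their part in this peak was not tested.

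The combined lists, called on the pooled tags of a strain, placed the peaks of both proteins in the same stretch of the laeA promoter. The VeA::FLAG combined peak, chrVIII:2424528-2424792, had a signal of 859 (95% counting interval 780 to 944) and was 150th by score among 5502 peaks. The LaeA::FLAG combined peak, chrVIII:2424429-2424705, had a signal of 675 (615 to 740) and was 152nd among 3333 peaks. The centres were 93 bp apart and the intervals shared 178 bp, so the peaks count as shared at the 100 bp used in the study and not at 50 bp. A centre of the other strain's list within 100 bp was found for 15% of the peaks in the VeA::FLAG combined list and for 24.8% of those in the LaeA::FLAG combined list. The nearest WT peak centre lay 2940 bp from the VeA::FLAG peak and 3033 bp from the LaeA::FLAG peak, whereas a WT centre within 100 bp was found for 2.4% of the peaks in the VeA::FLAG combined list and for 4.35% in the LaeA::FLAG one. These intervals, like all those on tags given here, cover counting error only.

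The VeA::FLAG combined peak of laeA lay within 100 bp of the peak centre of 1 VeA::FLAG replicate, replicate 2, at 6 bp, whereas the centres of replicates 1 and 3 were 151 and 164 bp away with overlapping intervals. Of all VeA::FLAG combined peaks, 77% were within 100 bp of at least 1 replicate peak and 30.1% of at least 2. The LaeA::FLAG combined peak lay within 100 bp of replicates 1 and 3 (64 and 5 bp), and 392 bp from the peak of replicate 2. At least 2 replicates were found for 10.1% of the LaeA::FLAG combined peaks. Because the combined peaks were called on the same tags, this agreement in place is not independent support.

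The anti-FLAG signal at laeA exceeded the IgG signal of the same strain in every list that had a peak. Peak calling in the study required a minimum fold change and a p-value cutoff. Called peaks were thus selected for high signal, and this excess is no independent support for binding. In the VeA::FLAG replicates the intervals held 89, 187 and 84 anti-FLAG tags, against 1 IgG tag in each. The ratio of signals was 109 (19.1 to 4357) in replicate 1, 207 (36.7 to 8218) in replicate 2 and 121 (21.1 to 4830) in replicate 3. These ratios rest on a single IgG tag, as their intervals show. The interval of the VeA::FLAG combined peak held 14 IgG tags and the ratio was 12.9 (7.59 to 23.7). At the LaeA::FLAG combined peak the ratio was 5.39 (4.43 to 6.58), on 461 anti-FLAG tags against 133 IgG tags. All replicates of a strain share 1 IgG library, so these ratios are not independent of each other. The IgG library held 2095244.5 tags in VeA::FLAG and 10610394 in LaeA::FLAG. Ratios of the tagged strains thus rest on unlike controls and cannot be set against each other.

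llmF had peaks in all 3 VeA::FLAG replicates and in none of the LaeA::FLAG or WT replicates, but the VeA::FLAG peaks did not lie in 1 place. The gene lies on the minus strand of chromosome I with the start of exon 1 at position 3056838, and peaks fell around exon 1, at exon 3 and past exon 5, which starts 1277 bp from exon 1. Around exon 1, VeA::FLAG replicate 2 had a peak centred 142 bp upstream, chrI:3056904-3057056, with a signal of 309. VeA::FLAG replicate 3 had one centred 4 bp inside the gene, chrI:3056761-3056907, with a signal of 409. VeA::FLAG replicate 1 had no peak there. Each of these exon 1 peaks held 0 tags of the VeA::FLAG IgG library, so that, against a floor of 3 IgG tags in the interval, the signal was at least 21.6-fold higher in replicate 2 and at least 28.5-fold higher in replicate 3. With the counting error of both antibodies included, the lower 95% limits of these ratios were 17.2 and 22.7.

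The exon 3 peak of llmF was called in VeA::FLAG replicate 1 alone among the single libraries, at chrI:3055875-3056077 with a signal of 363 and 862 bp inside the gene. The list places it in the promoter class of llmF although it lies inside the gene. The peaks past exon 5 were called in 2 VeA::FLAG replicates, in the class of the transcription end of llmF. That of replicate 1, chrI:3054505-3054707, had a signal of 231, and that of replicate 2, chrI:3054606-3054758, had a signal of 288. Their centres were 2232 and 2156 bp from the start of exon 1. Thus each position at llmF was called in at most 2 of the 3 VeA::FLAG replicates, and the presence of a peak in all 3 comes from counting over the whole gene. The exon 1 peaks of replicates 2 and 3 had centres more than 100 bp apart, and their intervals overlapped only at their ends.

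The VeA::FLAG combined list held a peak at each of the 3 positions of llmF. The exon 1 peak, chrI:3056696-3056960, had a signal of 358 (308 to 414) and ranked 1235th of 5502 by score. The exon 3 peak, chrI:3055851-3056115, had a signal of 199 (162 to 242), and the downstream peak, chrI:3054519-3054783, had a signal of 229 (189 to 275). The exon 1 peak held 0.5 IgG tag, the exon 3 peak 3.5 IgG tags with a ratio of 11.9 (3.96 to 39.1), and the downstream peak 0 IgG tags with a signal at least 16.0-fold higher than that floor (lower 95% limit of the ratio 12.8). The exon 1 and exon 3 peaks each lay within 100 bp of 1 VeA::FLAG replicate and the downstream peak of 2.

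The LaeA::FLAG combined list had 1 peak at llmF, chrI:3054390-3054666, also past exon 5. Its signal was 301 (261 to 345) and its ratio to IgG 3.41 (2.66 to 4.39). No LaeA::FLAG replicate had a peak near it, the nearest centres being 13704, 14320 and 51777 bp away, whereas at least 1 replicate held a nearby centre for 47.4% of the peaks in that combined list. Its centre was 123 bp from that of the VeA::FLAG downstream peak and the intervals shared 148 bp, so it counted as shared by overlap of the intervals but not within 100 bp.

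**Figure D2:**
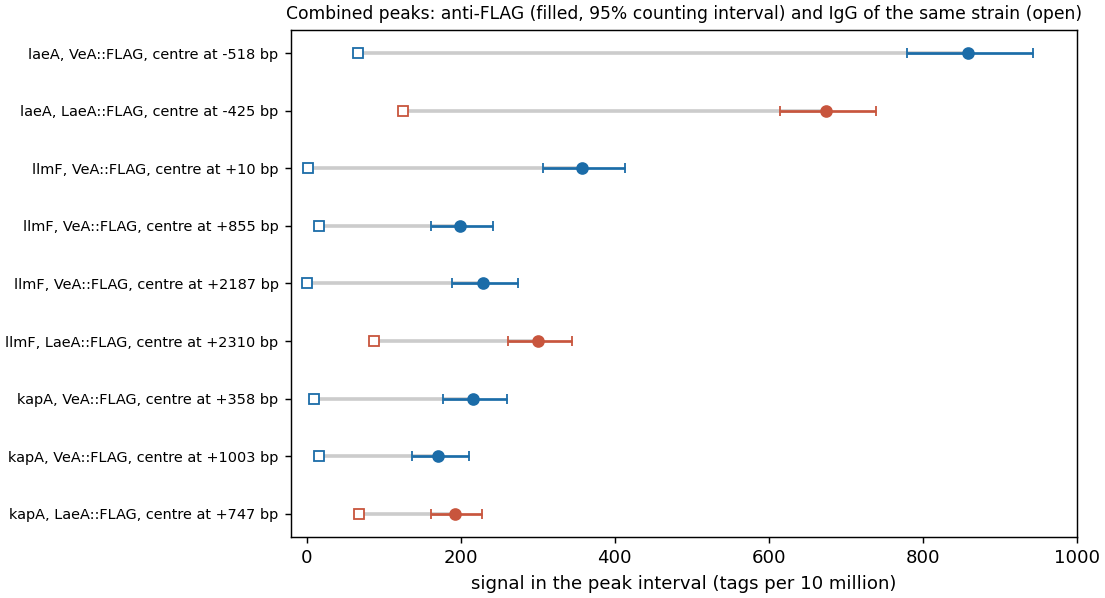
Signal of the 9 combined peaks at laeA, llmF and kapA in tags per 10 M, with the anti-FLAG signal and its exact 95% counting interval as filled points and the IgG signal of the same strain in the same interval as open squares. Anti-FLAG exceeded IgG at each peak, from 859 against 66.8 at the VeA::FLAG peak of laeA down to 193 against 68.3 at the LaeA::FLAG peak of kapA, and the LaeA::FLAG peaks had the higher IgG signal at each gene. Peaks were called with a minimum fold change, so the excess over IgG is in part a product of the calling.

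kapA had the weakest peaks, and those named for it lay inside the gene. It lies on the plus strand of chromosome VII with exon 1 starting at position 3011809, and 200 bp upstream of that start the neighbouring gene AN2141 starts in the opposite direction. VeA::FLAG replicate 1 had a peak at chrVII:3012010-3012212, inside the gene past the exon 1 start, with a signal of 99.5 from 17 tags. This was the lowest signal of any peak in that list, and the peak ranked 4241st of 4252 by score. VeA::FLAG replicate 2 had a peak at nearly the same place, chrVII:3012021-3012173, centred 288 bp past the exon 1 start, with a signal of 269 from 51 tags. Both intervals held 2 IgG tags.

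Each of these replicates also had a peak of kapA between exon 2 and exon 3, which start 658 and 1224 bp from exon 1. The signal was 140 in VeA::FLAG replicate 1, at chrVII:3012590-3012792, and 296 in VeA::FLAG replicate 2, at chrVII:3012771-3012923. Their centres lay 882 and 1038 bp past the exon 1 start, farther apart than the 100 bp used for sharing. The intervals overlapped only at their ends. No tag of the IgG library fell in these intervals, which makes the anti-FLAG signal at least 9.81-fold higher in replicate 1 and at least 20.7-fold higher in replicate 2 against the same floor (lower 95% limits 7.38 and 16.3). In both pairs of peaks the signal of replicate 2 was above that of replicate 1. VeA::FLAG replicate 3 had no peak named for kapA, nor had any LaeA::FLAG or WT replicate.

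Replicate 3 of VeA::FLAG did have a peak in the interval shared with AN2141, at chrVII:3011616-3011762, centred 120 bp upstream of kapA with a signal of 234. LaeA::FLAG replicate 1 had one there too, chrVII:3011496-3011696, centred 213 bp upstream with a signal of 383. The LaeA::FLAG combined list had a peak at chrVII:3011480-3011756 with a signal of 258 and a ratio to IgG of 2.15 (1.70 to 2.73). These 3 peaks are placed in the promoter class of kapA, as are the peaks named for kapA inside the gene. The exon start nearest to each of the 3 belongs to AN2141, and with promoters facing away from each other a peak here cannot be given to 1 gene. With the annotated gene also counted, kapA had 2, 2 and 1 peaks in the VeA::FLAG replicates, 1, 0 and 0 in the LaeA::FLAG replicates and 0 in each WT replicate.

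The combined lists gave kapA 2 VeA::FLAG peaks and 1 LaeA::FLAG peak. The VeA::FLAG peaks, chrVII:3012035-3012299 and chrVII:3012680-3012944, had signals of 215 (177 to 260) and 171 (137 to 211), with ratios to IgG of 22.6 (6.10 to 189) and 10.2 (3.40 to 33.8). The LaeA::FLAG peak, chrVII:3012418-3012694, had a signal of 193 (161 to 228) and the lowest ratio to IgG among the combined peaks named for the 3 genes, 2.82 (2.10 to 3.79). It was found in none of the LaeA::FLAG replicates, the nearest centre being 960 bp away. Its centre lay 256 bp from the closer VeA::FLAG peak and the intervals shared 15 bp.

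By score, the peaks of laeA stood high in their lists and those of kapA low, with llmF between. The share of peaks in the same list with a lower score was 75.6% to 98.0% for the 8 peaks of laeA. It was 31.6% to 84.2% for the 9 peaks of llmF and 0.188% to 65.5% for the 7 peaks of kapA. These places describe the peaks within each list, and several peaks of a gene rest on the same tags.

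**Figure D3:**
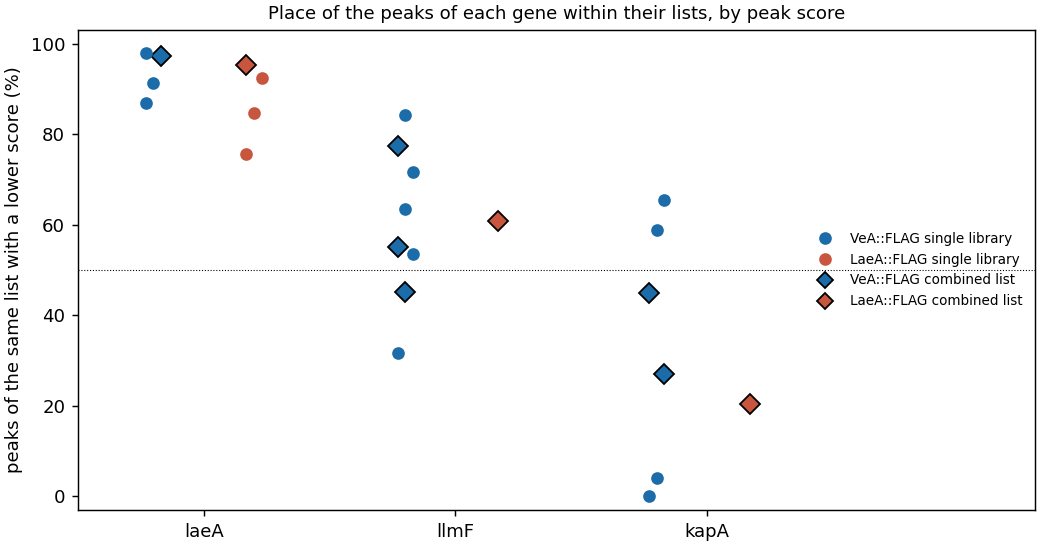
Place of the 24 peaks within their lists, as the percentage of peaks in the same list with a lower score, for laeA, llmF and kapA. Circles are peaks of single libraries, diamonds with a black edge are peaks of the combined lists, colours give the strain and the dotted line marks the middle of a list. The peaks of laeA lie between 75.6% and 98.0% and those of kapA between 0.188% and 65.5%.

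Over the whole gene, laeA had 1 peak in each VeA::FLAG replicate and llmF had 2, 2 and 1, against 0 in each WT replicate for both. The difference in means was 1 peak for laeA (1 ± 0 against 0 ± 0, SD, n = 3 each) and 1.67 peaks for llmF (1.67 ± 0.577 against 0 ± 0). Both gave p = 0.1 in the exact two-sided permutation test over the 20 divisions of 6 libraries, which is the smallest p this design allows, and adjusted p = 0.902 (Benjamini-Hochberg over all 9485 genes named in the lists). In 11% of all genes every VeA::FLAG library was above every WT library in the number of peaks, and laeA and llmF were among these 1047 genes. For llmF the separation ended when only peaks nearest to its exon 1 and centred up to 1.5 or 1 kb before it were counted. This left 1 peak, in VeA::FLAG replicate 2, and a difference of 0.333 peaks (exact permutation p = 1). kapA had 2, 2 and 0 peaks in the VeA::FLAG replicates against 0 in each WT replicate (exact permutation p = 0.4, adjusted p = 1), and there the groups overlapped. With the annotated gene also counted they did not (2, 2 and 1 peaks against 0, exact permutation p = 0.1), as in 13.7% of the 9831 genes named either way.

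In the LaeA::FLAG replicates laeA had 2, 0 and 1 peaks against 0 in each WT replicate (exact permutation p = 0.4, adjusted p = 1). Of the 2 in replicate 1, 1 was the peak at the transcription end of AN0808. llmF and kapA had no peak in either group. Every LaeA::FLAG library was above every WT library in 1.28% of all genes, and none of the 3 genes was among them by the rule used. With the annotated gene also counted, laeA was, with 2, 1 and 1 peaks in the LaeA::FLAG replicates (exact permutation p = 0.1), as were 1.32% of genes.

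Between the tagged strains, llmF had 2, 2 and 1 peaks in the VeA::FLAG replicates against 0 in each LaeA::FLAG replicate, with exact permutation p = 0.1 and adjusted p = 1. The groups did not overlap, as was the case for 5.89% of all genes. laeA averaged 1 peak in both strains (1 ± 0 in VeA::FLAG and 1 ± 1 in LaeA::FLAG, SD, n = 3 each), with the peak of LaeA::FLAG replicate 1 at the transcription end of AN0808 counted. For kapA the difference was 1.33 peaks, with 2, 2 and 0 peaks in the VeA::FLAG replicates against 0 in each LaeA::FLAG replicate (exact permutation p = 0.4). The LaeA::FLAG replicates held 557 to 2471 peaks in all and the VeA::FLAG replicates 4252 to 5783, and when each library was reduced to its 134 top-scoring peaks, the length of the shortest list, neither llmF nor kapA had a peak in any library. Of laeA the peak of VeA::FLAG replicate 2 remained, which ranked 113th, and the difference from WT was then 0.333 peaks.

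Signal was also summed over the called peaks of each gene. The sum was 521, 988 and 577 for laeA in the VeA::FLAG replicates (695 ± 255, SD, n = 3), against no called peak in WT. For llmF it was 594, 597 and 409 in the VeA::FLAG replicates (533 ± 108), and here the replicates differed least. For kapA it was 240 and 565 in VeA::FLAG replicates 1 and 2, with no peak called in replicate 3. For laeA and llmF the comparison with WT gave p = 0.1 in the exact permutation test and adjusted p = 0.788, and every VeA::FLAG library was above every WT library in 12.6% of all genes. By summed signal the VeA::FLAG libraries were all above the LaeA::FLAG libraries at llmF, as at 7.18% of all genes.

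laeA in the LaeA::FLAG replicates had summed signals of 1166 and 727 in replicates 1 and 3, with no peak called in replicate 2 (631 ± 589, SD, n = 3, with replicate 2 at 0). In replicate 1 the promoter peak gave 644 of this sum. The other 522 came from the peak at the transcription end of AN0808. The VeA::FLAG and LaeA::FLAG values of laeA overlapped, and the difference of 64.2 was smaller than the spread in either strain (exact permutation p = 1). Its sign turned without LaeA::FLAG replicate 2, where it was -251, and without VeA::FLAG replicate 2, where it was -82.1.

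**Figure D4:**
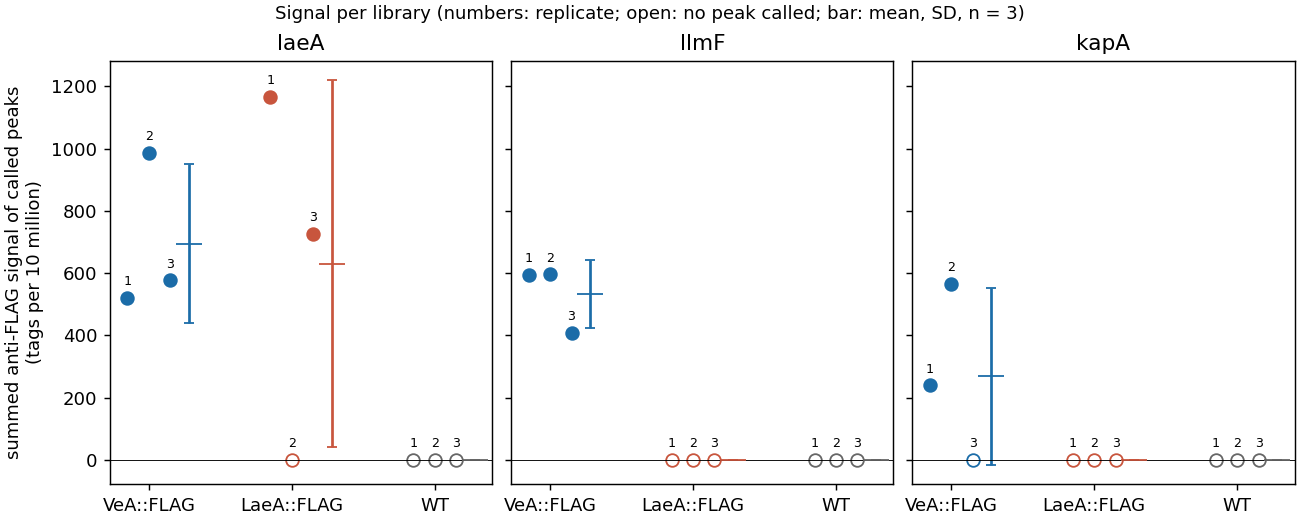
Summed anti-FLAG signal of the called peaks named for laeA, llmF and kapA in each single library (tags per 10 M), with the replicate number beside each point, open points where no peak was called, and the mean and SD of the 3 libraries beside them. laeA has points of 521 to 988 in VeA::FLAG and of 727 and 1166 in 2 LaeA::FLAG libraries, llmF has points of 409 to 597 in VeA::FLAG only, and every WT point is open. The 1166 of LaeA::FLAG replicate 1 includes 522 from the peak at the transcription end of AN0808.

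In the combined lists each of the 3 genes had at least 1 VeA::FLAG peak and at least 1 LaeA::FLAG peak. A VeA::FLAG combined peak was named for 47.1% of all genes, a LaeA::FLAG one for 29.6% and both for 18.4%. In single libraries, a peak was named for 37.6%, 46.6% and 46.7% of all genes in VeA::FLAG replicates 1, 2 and 3, for 23.2%, 20.7% and 5.59% in the LaeA::FLAG replicates and for 1.32%, 17.6% and 2.03% in the WT replicates. laeA was among the 2.66% of genes with a peak in 3 VeA::FLAG replicates, at least 2 LaeA::FLAG replicates and no WT replicate. llmF was among the 4.23% with a peak in 3 VeA::FLAG replicates and in no LaeA::FLAG or WT replicate, and kapA among the 12.4% with a peak in 2 VeA::FLAG replicates and in none of the others. A gene without any WT peak was common, at 80.4% of all genes.

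The IgG libraries held signal across the merged regions of these genes, and its level depended on the library. The merged region that holds the upstream peaks of laeA, chrVIII:2424408-2425733, is 1326 bp wide and is itself nearest to AN12109. Its IgG signal per kb was 297 in the VeA::FLAG strain, 490 in the LaeA::FLAG strain and 396 in WT. These values were above the medians over all 21897 regions, which were 156 for the VeA::FLAG, 368 for the LaeA::FLAG and 306 for the WT IgG library. They stood higher than 67.7%, 80.7% and 63.5% of the regions of the same IgG library. The region that was named for laeA, at the downstream peak of LaeA::FLAG replicate 1, had no tag in the VeA::FLAG IgG library, 509 per kb in that of LaeA::FLAG and 421 per kb in that of WT.

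Of the 3 regions of llmF the exon 1 region had the highest IgG signal, with 294 per kb in the VeA::FLAG, 542 in the LaeA::FLAG and 620 in the WT IgG library. The exon 3 region had 63.0, 258 and 263 per kb in these libraries, and the downstream region 185, 432 and 283. Nearly all the VeA::FLAG IgG signal of the exon 1 region lay beside the combined peak. Within the VeA::FLAG combined peak it was 9.01 per kb, against 510 per kb in the rest of the region. The downstream VeA::FLAG peak held no IgG tag, against 24 tags in the rest of its region, and the downstream LaeA::FLAG peak had 318 against 525 per kb.

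At kapA the region past exon 1 had 32.9 per kb in the VeA::FLAG, 387 in the LaeA::FLAG and 402 in the WT IgG library, and the region at exon 2 had 231, 305 and 300. The VeA::FLAG combined peak in the exon 2 region held 63.0 per kb, against 401 per kb in the rest of the region, and the LaeA::FLAG peak held 247 against 369 per kb. At laeA the values were 252 within the VeA::FLAG peak against 308 per kb in the rest of its region, and 453 within the LaeA::FLAG peak against 500 per kb. IgG signal was lower inside the peak than beside it in 50.1% of 2452 VeA::FLAG peaks and in 44.7% of 1428 LaeA::FLAG peaks, counted over the combined peaks whose region held at least 100 bp more.

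**Figure D5:**
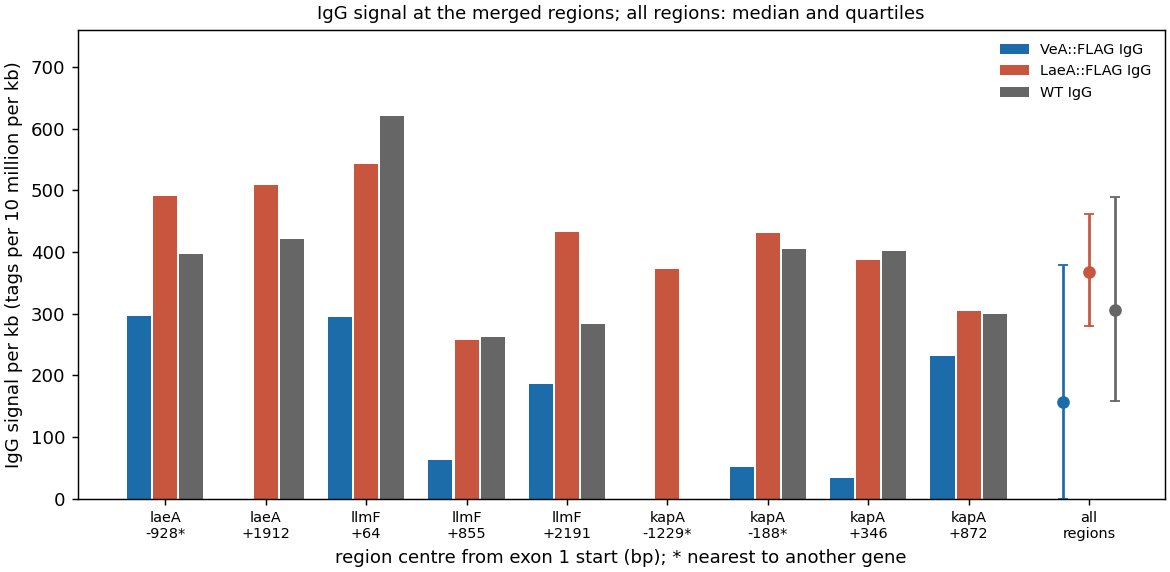
IgG signal per kb (tags per 10 M per kb) in the merged regions at laeA, llmF and kapA, with 1 bar for the IgG library of each strain. Regions are labelled by the distance of their centre from the start of exon 1, an asterisk marks those nearest to another gene, a missing bar is 0, and the points at the right give the median and quartiles over all 21897 regions. The exon 1 region of llmF had 294, 542 and 620 per kb in the VeA::FLAG, LaeA::FLAG and WT libraries, and the region upstream of laeA 297, 490 and 396 per kb.

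Another 9 genes are linked to VeA by their known roles (velvet genes, genes of light sensing and the kinase gene mpkB). Of these, 7 had a VeA::FLAG combined peak and 6 a LaeA::FLAG one, against 47.1% and 29.6% of all genes, which was not tested. Among the 9, 4 had a peak in all 3 VeA::FLAG replicates, against 14.6% of all genes. These 4 were veA, velB, AN2059 and the phytochrome gene fphA. A WT peak was present at 2 of the 9, fphA and the velvet gene vosA, against 19.6% of all genes. veA itself (AN1052) and velB (AN0363), the velvet partner of VeA, had peaks in all 6 tagged libraries and in no WT library. A peak in 3 VeA::FLAG, at least 2 LaeA::FLAG and no WT replicate, as in both, was found for 2.66% of all genes. The summed signal at veA was 3025, 3645 and 1875 in the VeA::FLAG replicates and 2893, 2081 and 933 in the LaeA::FLAG replicates. At velB it was 3484, 4247 and 2016 in the VeA::FLAG replicates and 369, 747 and 538 in the LaeA::FLAG replicates. The VeA::FLAG values of veA and velB were thus above those of laeA, llmF and kapA in each replicate. Both were chosen for having peaks in the most libraries and do not stand for the whole list. In the VeA::FLAG replicates AN2059 had 313, 555 and 601, and fphA had 389, 1814 and 1284. The rest of the list lacked a peak in at least 1 VeA::FLAG replicate. In the VeA::FLAG strain the veA locus carries the tag and marker, and their part in its signal was not tested.

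The genes whose log2 (summed signal + 10) followed that of laeA most closely over the 9 libraries were AN1996 (Pearson r = 0.998), AN0229 (r = 0.995) and AN6167 (r = 0.992), among 2933 genes with a peak in at least 3 libraries. Each shared with laeA a peak in the 3 VeA::FLAG replicates and in LaeA::FLAG replicates 1 and 3. For llmF they were AN3613, AN5694 and AN7777, each with r = 1.00 after rounding and peaks in the 3 VeA::FLAG replicates only. These correlations rest mainly on which libraries had a peak. kapA had peaks in 2 libraries, too few to be set beside other genes in this way.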

How the data were processed

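ChIP-seq libraries of VeA::FLAG, LaeA::FLAG and WT cells (3 anti-FLAG and 1 IgG each) were grouped by strain and antibody as labelled. According to the study's methods, the authors mapped reads with bowtie2 and called peaks with HOMER (version 4.11), at a minimum fold change and a p-value cutoff. The deposited signal is tags per 10 M, given for anti-FLAG and for the strain's IgG library. The deposited peak score was used for ranks only. The deposited distance to the nearest feature start (bp, another kind of value) was used to solve exon starts. Tags were recovered in steps of 0.5 from the totals in the file headers. Because these are not whole reads, no count model was fitted. Combined lists were called by the authors on pooled tags.

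Peaks and signal per gene and library (0 where no peak was called) were compared by their means in an exact permutation test (two-sided), adjusted over all 9485 genes (Benjamini-Hochberg). The test was checked on simulated data. Exact Poisson intervals used the tags as recovered, and exact conditional intervals for ratios to IgG used tags rounded up. Where IgG held 0 tags, the least fold was taken against a floor of 3 tags. Peaks with centres within 100 bp were shared. The members, lists and tests were chosen with earlier results of these data known. Genes named are laeA, llmF and kapA with all their peaks, the 3 genes most like each by Pearson r where the gene had peaks in at least 3 libraries, the 2 of 9 listed genes of VeA action with peaks in most libraries, and neighbours named in the lists. AN2059, fphA and vosA are named too, a choice made with their values known, to say which genes made up small counts. Values of AN2059 and fphA are given to set beside those of veA and velB, and mpkB is named to describe the list. RefSeq names (ASM1142v1) matched 8883 genes. The promoter motif search was not run and no sequences were used here. Alternatives were a promoter of 1.5 or 1 kb before exon 1, a ratio of at least 4 over IgG, equal numbers of peaks, other overlap rules, a log2 scale, a block on replicate number, and omission of single replicates. The promoter count took only peaks nearest to exon 1 of the gene. Counting the gene of the annotation class, and IgG inside against beside a peak, were added after the data were seen. Versions were Python 3.11.15, pandas 2.3.3, numpy 2.4.6, scipy 1.17.1 and matplotlib 3.10.9.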

Additional observations from a re-analysis of the deposited data

How the results depend on the processing

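Of 240 values recomputed under alternatives for 33 results, 216 counted as the same, 21 others moved and 3 turned round. A difference counted as the same when it kept its sign or stayed at 0. A count of combined peaks did so when it was equal or within 1.5-fold. The p-values played no part in these labels. Of the 216, 21 on the linear scale differed from the reported value 1.5 times or more. With equal numbers of top-scoring peaks, VeA::FLAG minus WT was 0 peaks for llmF and for kapA and 0.333 for laeA, LaeA::FLAG minus WT was 0 for laeA, and VeA::FLAG minus LaeA::FLAG was 0 for llmF and kapA and 0.333 for laeA. A further count took only peaks nearest to exon 1 of the gene and up to 1.5 or 1 kb before it. VeA::FLAG minus WT and VeA::FLAG minus LaeA::FLAG were then 0 peaks for kapA and 0.333 for llmF (1.67 with all peaks). VeA::FLAG minus LaeA::FLAG was 0.333 for laeA. This count left out peaks nearest to a neighbouring gene. Among these were peaks 120 bp (VeA::FLAG replicate 3) and 213 bp (LaeA::FLAG replicate 1) upstream of kapA, and 817 bp (LaeA::FLAG replicate 2) upstream of laeA. With the annotated gene also counted, LaeA::FLAG minus WT for kapA was 0.333 peaks and 128 units of signal, and VeA::FLAG minus LaeA::FLAG for laeA was -0.333 peaks and -120 units of signal. Leaving out single replicates moved VeA::FLAG minus LaeA::FLAG for laeA over a range of -0.5 to 0.5 peaks (lowest without LaeA::FLAG replicate 2, highest without LaeA::FLAG replicate 1) and of -251 to 332 units of signal. VeA::FLAG minus WT for kapA was 120 units of signal without VeA::FLAG replicate 2 and 403 units (2 peaks) without replicate 3, and LaeA::FLAG minus WT for laeA was 363 units (0.5 peaks) without LaeA::FLAG replicate 1. Within 50 bp, 0 combined peaks of laeA were shared and 1 VeA::FLAG combined peak of kapA was found in single libraries, and by any overlap 1 peak was shared at llmF and 1 at kapA.

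Same-numbered libraries did not deviate together (r from -0.018 to 0.011 across genes, 0 of 9 pairs over 0.1). Differently numbered libraries gave r from -0.0501 to 0.0492. No pairing by number was thus seen, but called peaks of so few libraries cannot exclude it. With the replicate block, the exact p was 0.25 for laeA and for llmF in VeA::FLAG minus WT (a difference of 1 and 1.67 peaks), the smallest this block allows, and no call changed. With 3 libraries per group no single gene could pass 0.05, so unchanged calls say nothing about stability. The fewest tags behind a peak of these genes were 17, and IgG ratios rest on 1 library per strain.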

Other observations

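Several merged regions at laeA, llmF and kapA were made from more peaks than the 11 lists hold. The region upstream of laeA is recorded as a merger of 16 peaks, of which 9 are in the lists used here. At llmF the numbers are 7 and 3 for the exon 1 region, 4 and 2 for the exon 3 region and 10 and 4 for the downstream region, and at kapA they are 4 and 3 for the region past exon 1 and 6 and 4 for the exon 2 region. The region at the downstream peak of LaeA::FLAG replicate 1 at laeA is recorded as 1 peak, which is in the lists. The lists behind the other peaks were not analysed here.

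VeA::FLAG replicate 3 had a further peak nearest to AN12109, centred 1088 bp upstream of exon 1 of laeA, with a signal of 285 (205 to 386). The same replicate had a peak nearest to AN2141, centred 1229 bp upstream of exon 1 of kapA, with a signal of 192 (128 to 278) and no tag in the VeA::FLAG IgG library. These intervals are exact 95% Poisson intervals on the tags.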
